A study of Mus musculus with 7 samples.

Results

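Transcripts of 38 genes of glucose uptake, glycolysis, fructose bisphosphatase, glycogen and lactate transport were examined in mouse quadriceps, the large thigh muscle. They were picked by symbol from a deposited table of 53819 genes. Of the 38 symbols, 37 matched the table directly and Gyg1 matched through its RefSeq synonym Gyg, the name used here. The RNA came from 7 libraries of wild type males of the inbred C57BL/6J strain. At 8 weeks of age every mouse was given 200 µl of an AAV8 vector, a liver-seeking adeno-associated virus, by the tail vein, and the muscle was collected 54 days later. In the AAV8-Null group (4 libraries) the vector was AAV8-Alb-Null, and in the AAV8-IGFBP1 group (3 libraries) it was AAV8-Alb-IGFBP1, so both groups carried vector. Alb is the symbol of the albumin gene, whose promoter works mainly in liver cells. IGFBP1 is a secreted, mainly hepatic protein that binds insulin-like growth factors. Since no label ties each library to its own mouse, p-values here speak for the spread between these libraries alone, and that spread may be technical.

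Muscle takes up glucose through transporters of the SLC2A (GLUT) family, and insulin and contraction move GLUT4 to the cell surface by acting on the Rab regulators TBC1D4 and TBC1D1. Inside the fibre, hexokinase traps glucose as glucose 6-phosphate, which either runs through glycolysis to pyruvate and lactate or is stored as glycogen. Fast fibres rely on glycolysis and glycogen breakdown for short bursts of work, while slow fibres carry more of the heart-type lactate dehydrogenase subunit and oxidize lactate.

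In AAV8-IGFBP1 muscle, transcripts of 2 of the 38 genes rose. Fbp2, which encodes the muscle fructose bisphosphatase that runs counter to phosphofructokinase, was 1.78-fold higher, and Tbc1d4, the gene of an insulin-regulated brake on GLUT4 traffic (also called AS160), was 1.33-fold higher. None of the 38 fell by edgeR's quasi-likelihood test, which called 0.194% of all genes lower, although 2 members, Gbe1 and Ppp1r3c, were lower at an unadjusted p under 0.05. The genes of the glycolytic steps themselves had log2 changes (log2 of the fold between groups, positive where AAV8-IGFBP1 is higher) close to 0. All 38 passed the filter on low counts, and 2 of 38 is 5.26%, where 0.556% of all 14935 genes tested were called in either direction and 0.362% were called higher. The count of called members ran from 0 to 7 over the alternatives tried. Groups did not overlap for 6 members, which is 15.8% against 12.3% of all genes tested, and 7 members (18.4%) had an unadjusted edgeR p under 0.05 against 12.6% of all genes. Both of these shares lay near those of all genes. The median log2 change over the 38 was -0.012, beside -0.00066 over all genes tested, and 18 members lay above 0 (47.4%, against 49.9% of all genes). DESeq2 called 7 members, 5 higher and 2 lower, where it called 3.28% of all genes.

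**Figure D1:**
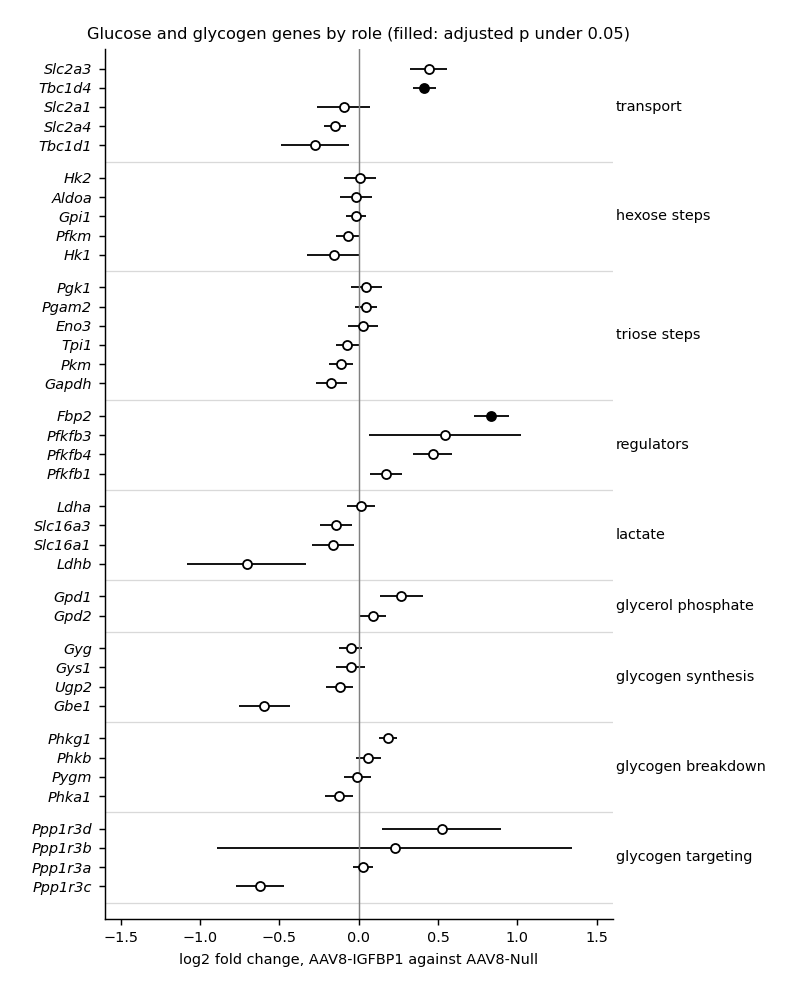
Log2 change of AAV8-IGFBP1 against AAV8-Null (x axis) for the 38 genes grouped by role (y axis). Points are edgeR estimates, bars 1 standard error, and filled points have an adjusted p under 0.05. The 2 filled points, Fbp2 and Tbc1d4, lie to the right of 0, and the points of the hexose and triose steps lie between -0.17 and 0.05.

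Totals ranged from 38947493 to 51210391 estimated counts per library, so that a count of 0 would allow at most 0.0586 to 0.0770 CPM (counts relative to the scaled library total) from counting error alone. Igfbp1 itself had 202, 1425 and 142 counts in AAV8-IGFBP1 replicates 1, 2 and 3, 8 counts in AAV8-Null replicate 4 and 0 in the other AAV8-Null libraries. All 9 defining markers of skeletal muscle were tested, and they summed to 138440 to 165819 CPM. The summed level of 10 slow fibre markers ran from 676 to 2092 CPM in AAV8-Null and from 295 to 936 CPM in AAV8-IGFBP1. That of 4 smooth muscle markers ran from 51.5 to 80.5 and from 26.9 to 34.5 CPM, without overlap. All 4 had a log2 change below 0 (median -1.11) and an unadjusted edgeR p under 0.05. Only 1 of these 4 genes, Tagln, passed the test (log2 change -1.097, edgeR adjusted p = 0.00778). Over 9 adipocyte markers the sum was 809 to 1280 CPM in AAV8-Null, 836 and 851 CPM in AAV8-IGFBP1 replicates 1 and 3 and 2175 CPM in replicate 2. Lpl, whose log2 change was -0.23, alone gave much of these sums. It lay at 759, 420, 545 and 674 CPM in AAV8-Null and at 398, 609 and 523 CPM in AAV8-IGFBP1. The log2 change lay above 0 for 8 of the 9, with a median of 0.96. It lay below 0 for all 7 fibroblast markers (median -0.43), whose sum ran from 493 to 798 CPM in AAV8-Null and from 308 to 547 CPM in AAV8-IGFBP1, and for all 7 tenocyte markers (median -0.39, sums of 169.9 to 393 and 79.6 to 320.4 CPM). The same held for all 6 endothelial (median -0.09, 173 to 210 and 169 to 179 CPM), all 6 macrophage (-0.16, 40.2 to 59.9 and 29.4 to 54.0 CPM) and all 5 nerve markers (-0.27, 21.3 to 39.6 and 18.2 to 23.3 CPM). None of the markers in these 5 lists passed edgeR's test, and 2 fibroblast, 1 endothelial and 2 nerve markers had an unadjusted p under 0.05. No marker was at 0 in any library. Rn18s, the 18S ribosomal RNA gene, took 0.593, 0.653, 1.32 and 0.797% of the counts in AAV8-Null and 1.09, 2.29 and 1.52% in AAV8-IGFBP1. Its groups overlapped, and its log2 change of 0.93 (SE 0.37) had an edgeR adjusted p of 0.376 and an unadjusted one under 0.05. Slow fibre markers entered a fit below, and the part of the other cell types and of Rn18s in the results was not tested. In whole muscle, fewer cells of a type and less RNA per cell cannot be told apart. The 38 genes together took 4.60 to 5.51% of the counts of a library.

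The promoters of 3 genes are shown, the 2 that rose and Ppp1r3c, which had the lowest p of the members that did not pass the test. Each window runs from 250 bases before to 50 bases after the annotated start, is taken from RefSeq (GRCm38.p6, an earlier build than that of the counts) and is read 5′ to 3′ on the minus strand. They lie at chr13:62858351-62858650 (Fbp2), chr14:101609142-101609441 (Tbc1d4) and chr19:36736555-36736854 (Ppp1r3c). Capitals mark the E-box CACGTG, a site known to be bound by the circadian clock activators among other factors.
Fbp2: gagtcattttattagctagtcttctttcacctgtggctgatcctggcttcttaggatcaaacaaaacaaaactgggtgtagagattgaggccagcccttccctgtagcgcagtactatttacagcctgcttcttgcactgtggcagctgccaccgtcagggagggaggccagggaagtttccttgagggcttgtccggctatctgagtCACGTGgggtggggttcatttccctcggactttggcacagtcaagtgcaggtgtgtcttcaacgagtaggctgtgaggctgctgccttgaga
Tbc1d4: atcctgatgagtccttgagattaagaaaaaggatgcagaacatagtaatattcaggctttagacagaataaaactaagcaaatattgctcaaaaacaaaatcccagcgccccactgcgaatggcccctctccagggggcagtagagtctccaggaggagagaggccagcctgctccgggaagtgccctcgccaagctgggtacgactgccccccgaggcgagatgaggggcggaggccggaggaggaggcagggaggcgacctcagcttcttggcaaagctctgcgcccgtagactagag
Ppp1r3c: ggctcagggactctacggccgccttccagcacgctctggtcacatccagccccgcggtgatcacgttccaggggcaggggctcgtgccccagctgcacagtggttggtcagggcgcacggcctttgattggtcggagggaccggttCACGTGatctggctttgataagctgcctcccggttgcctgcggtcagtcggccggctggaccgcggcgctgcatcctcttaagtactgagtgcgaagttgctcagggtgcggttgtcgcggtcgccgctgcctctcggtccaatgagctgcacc
The E-box of Fbp2 lies 42 to 37 bases before the start and that of Ppp1r3c 104 to 99 bases before it. None of the motifs searched is in the Tbc1d4 window. The table held 49 windows of 34 of the 38 genes, and none for Gpd1, Ppp1r3b, Slc2a3 or Slc2a4. CACGTG, searched on both strands, was in 8 of the 49 windows (16.3%) and in 7.15% of all 32851 windows in the table, which have the same length. Those 8 belong to Fbp2, Gyg, Ldha, Pfkfb3, Pfkm, Ppp1r3c, Ppp1r3d and Slc16a1, of which only Fbp2 passed the test. The hypoxia response letters GACGTG were in 13 windows of 12 genes (26.5% of windows, against 6.38% of all). These were Aldoa, Gpd2, Hk2, Ldha, Pfkfb3, Pgk1, Pkm, Pygm, Slc16a1, Slc16a3, Slc2a1 and Ugp2. TACGTG was in 2 windows (4.08%, against 3.23%), those of Gapdh and Hk1. All 3 of these motifs share the core ACGTG or its complement but cannot be read from the same 6 bases. A MEF2 form, CTA and TAG with any 4 bases between them, was in the Ldhb, Phka1 and Ppp1r3a windows (6.12% of windows, against 3.69% of all). TTCNNNGAA, the STAT form, was in 1 Pfkm window (2.04%, against 8.30%), and the D-box TTATGTAA (0.938% of all windows) and the FoxO letters GTAAACA (3.65%) were in none. These are matches of letters, described without a test.

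Among the enzymes that set the balance between fructose 6-phosphate and fructose 1,6-bisphosphate was Fbp2, the member with the highest fold change. Fbp2 lay at 24.3, 24.1, 26.6 and 27.9 CPM in AAV8-Null replicates 1 to 4 and at 54.7, 43.5 and 39.3 CPM in AAV8-IGFBP1 replicates 1 to 3. Every AAV8-IGFBP1 library was above every AAV8-Null library, and replicate 1 stood highest. The means were 25.7 ± 1.85 and 45.8 ± 7.96 CPM (SD, n = 4 and 3), a log2 change of 0.83 (SE 0.11, edgeR adjusted p = 0.0162). DESeq2 gave an adjusted p of 1.05e-08 and limma-voom one of 0.0281, and leaving out 1 library at a time gave a log2 change of 0.69 to 0.93. Among the fits that left out a library or added a fibre level, the call was lost without AAV8-Null replicate 1 (edgeR adjusted p = 0.0722), without AAV8-IGFBP1 replicate 2 (0.0551) and once the slow fibre level entered as covariate (log2 change 0.69, 0.153). In each AAV8-IGFBP1 library that level was below those of AAV8-Null replicates 1, 3 and 4, so the covariate shares part of the group difference.

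The PFKFB enzymes make and break fructose 2,6-bisphosphate, the main activator of phosphofructokinase. Pfkfb4 lay at 32.1, 41.0, 32.2 and 30.1 CPM in AAV8-Null and at 51.7, 39.9 and 48.9 CPM in AAV8-IGFBP1, so that AAV8-Null replicate 2 reached above AAV8-IGFBP1 replicate 2. Its log2 change of 0.47 (SE 0.12) did not pass the test (edgeR adjusted p = 0.166), although DESeq2 called it (0.0190). Pfkfb1, the isoform shared by liver and muscle, went from 32.4 ± 4.36 to 36.6 ± 2.38 CPM (log2 change 0.17, edgeR adjusted p = 0.539). Pfkfb3, the isoform with the highest kinase activity, is given library by library because of its spread, a choice made after its values were seen. It lay at 112, 232, 106 and 297 CPM in AAV8-Null and at 369, 274 and 175 CPM in AAV8-IGFBP1. The AAV8-Null libraries alone spanned 2.80-fold, and the log2 change of 0.54 (SE 0.48) did not pass the test (edgeR adjusted p = 0.716). All 4 genes of this group had a log2 change above 0, and 1 of the 4 passed the test.

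Among the genes of glucose entry, Tbc1d4 lay at 57.9, 48.8, 51.5 and 57.7 CPM in AAV8-Null and at 71.0, 70.2 and 74.6 CPM in AAV8-IGFBP1. The groups were well apart, and the AAV8-IGFBP1 libraries lay close together. The log2 change was 0.41 (SE 0.07, edgeR adjusted p = 0.0458). This p is close to the threshold, and without any 1 of the 7 libraries it was 0.0503 to 0.148, while the log2 change stayed between 0.37 and 0.45. DESeq2 gave an adjusted p of 0.000144 and limma-voom one of 0.0613. Fitted beside the slow fibre level, the log2 change was 0.56 (edgeR adjusted p = 0.0389).

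Tbc1d1, the relative of Tbc1d4 that responds chiefly to contraction, did not pass the test and its values lay on the other side of 0. It went from 71.5 ± 9.39 to 59.1 ± 19.5 CPM (log2 change -0.28, SE 0.22, edgeR adjusted p = 0.667). AAV8-IGFBP1 replicates 1 and 2 lay at 46.9 and 48.8 CPM, below every AAV8-Null library, and replicate 3 at 81.5 CPM, within their range of 62.7 to 84.1. Slc2a3 (GLUT3), a high-affinity transporter known mainly from neurons and blood cells, lay at 8.24, 9.97, 9.01 and 7.40 CPM in AAV8-Null and at 10.4, 12.1 and 12.8 CPM in AAV8-IGFBP1. Its groups did not overlap, but the log2 change of 0.44 (SE 0.12) did not pass edgeR's test (adjusted p = 0.156), and DESeq2 gave an adjusted p of 0.0491. Of the neutrophil markers, S100a8 lay at 0.119 to 0.916 CPM in AAV8-Null and at 1.39, 10.3 and 0.996 CPM in AAV8-IGFBP1, without overlap, and S100a9 at 0.073 to 1.1 and at 1.80, 8.87 and 0.819 CPM. Their log2 changes of 3.06 and 2.77 did not pass edgeR's test (adjusted p = 0.342 and 0.373). The mast cell markers lay the other way without overlap, Cpa3 at 0.556 to 0.949 CPM against 0.266 to 0.459 (log2 change -0.91) and Mcpt4 at 1.41 to 2.36 against 1.13 to 1.302 (-0.61), and did not pass either (adjusted p = 0.302 and 0.308). These 4 genes together summed to 2.50 to 5.24 CPM in AAV8-Null and to 4.95, 20.9 and 3.21 CPM in AAV8-IGFBP1. The sum of 5 erythroid markers ran from 203 to 291 and from 195 to 286 CPM. Their part in the Slc2a3 values was not tested. Slc2a4 (GLUT4), the insulin-responsive transporter of muscle, went from 387 ± 11.9 to 350 ± 30.4 CPM (log2 change -0.15, edgeR adjusted p = 0.424). Slc2a1 (GLUT1), the basal transporter, went from 4.50 ± 0.0671 to 4.22 ± 1.05 CPM (log2 change -0.09, edgeR adjusted p = 0.870). Neither transporter gene passed the test.

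**Figure D2:**
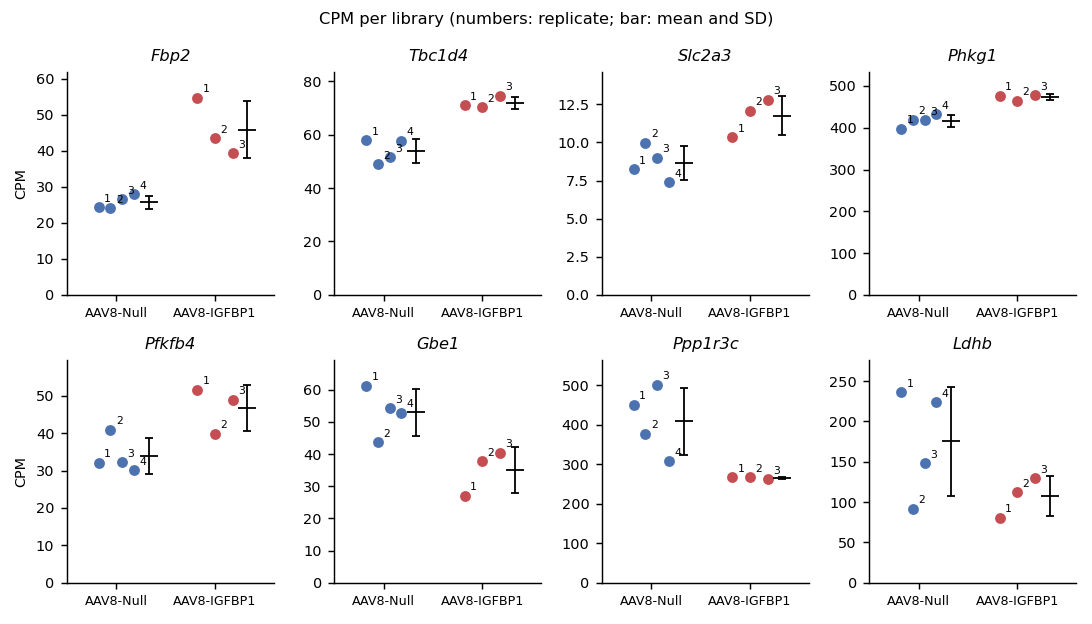
CPM (y axis, from 0) of 8 genes in each library of AAV8-Null (blue) and AAV8-IGFBP1 (red). Points are libraries numbered by replicate, with the group mean and SD beside them. Fbp2, Tbc1d4, Slc2a3 and Phkg1 lie higher and Gbe1 and Ppp1r3c lower in every AAV8-IGFBP1 library, while the groups overlap for Pfkfb4 and Ldhb.

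Glycogen is built on a glycogenin primer from UDP-glucose. None of the 4 synthesis genes passed edgeR's test, 1 (Gbe1) had an unadjusted p under 0.05, and all 4 had a log2 change below 0. Gbe1, which encodes the branching enzyme that gives glycogen its tree form, lay at 61.3, 43.6, 54.2 and 52.8 CPM in AAV8-Null and at 27.1, 37.7 and 40.5 CPM in AAV8-IGFBP1. The groups did not overlap, with the gap between AAV8-Null replicate 2 and AAV8-IGFBP1 replicate 3 the narrowest. The log2 change of -0.59 (SE 0.16) had an edgeR adjusted p of 0.185 and a DESeq2 adjusted p of 0.00699. Once the slow fibre level was a covariate it was -0.22 (edgeR adjusted p = 0.560). Gys1, the muscle glycogen synthase gene, went from 480 ± 33.7 to 464 ± 57.0 CPM. Gyg, the glycogenin gene, went from 221 ± 15.7 to 214 ± 12.97 CPM, and Ugp2, whose enzyme makes UDP-glucose, from 428 ± 24.0 to 393 ± 43.1 CPM. The edgeR adjusted p-values of these 3 genes were 0.870, 0.839 and 0.610.

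The regulatory subunits of protein phosphatase 1 bring the phosphatase to the glycogen particle, where it turns synthase on and phosphorylase off. Ppp1r3c, also called PTG, lay at 451, 377, 501 and 307 CPM in AAV8-Null and at 267, 267 and 262 CPM in AAV8-IGFBP1. All 3 AAV8-IGFBP1 libraries were below the lowest AAV8-Null library and nearly equal to each other, whereas the AAV8-Null libraries spanned 1.63-fold. The means were 409 ± 84.7 and 265 ± 2.56 CPM, and the log2 change of -0.62 (SE 0.15) did not pass the test (edgeR adjusted p = 0.145). It passed with DESeq2 (adjusted p = 0.00143) and without AAV8-Null replicate 4, the library nearest to the AAV8-IGFBP1 values (log2 change -0.74, edgeR adjusted p = 0.0282). With the slow fibre level as covariate the log2 change was -0.65 (edgeR adjusted p = 0.418).

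Ppp1r3a, the muscle-specific subunit, went from 370 ± 19.1 to 377 ± 13.6 CPM (log2 change 0.03, edgeR adjusted p = 0.903). Ppp1r3b, known chiefly from liver, is given in full because it was the most variable member, again a choice made after its values were seen. It lay at 15.9, 6.90, 3.19 and 1.31 CPM in AAV8-Null and at 2.60, 19.1 and 2.59 CPM in AAV8-IGFBP1, a 14.5-fold range over the 7 libraries. Its log2 change of 0.23 (SE 1.12, edgeR adjusted p = 0.958) became -1.40 without AAV8-IGFBP1 replicate 2. The libraries with the highest Ppp1r3b, AAV8-IGFBP1 replicate 2 and AAV8-Null replicate 1, also had the highest summed adipocyte markers, 2175 and 1280 CPM. AAV8-Null replicate 4 came next in that sum (1047 CPM, of which Lpl gave 674) but had the lowest Ppp1r3b. The mean centred log2 CPM of the 9 adipocyte markers weighs each marker alike. It was 1.63 in AAV8-IGFBP1 replicate 2 and 0.25 in AAV8-Null replicate 1. In AAV8-Null replicate 4 it was -0.42, below AAV8-Null replicate 2 (0.07) and AAV8-IGFBP1 replicate 1 (-0.16). The part of adipocytes in the Ppp1r3b values was not tested. Ppp1r3d was low, at 1.48 ± 0.457 and 2.14 ± 0.995 CPM (edgeR adjusted p = 0.624).

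Glycogen breakdown starts with phosphorylase, which phosphorylase kinase switches on. Phkg1, the catalytic subunit gene of that kinase in muscle, lay at 397, 419, 418 and 433 CPM in AAV8-Null and at 477, 464 and 478 CPM in AAV8-IGFBP1. The groups did not overlap, although the shift was small. The log2 change of 0.18 (SE 0.06) had an edgeR adjusted p of 0.224 and a DESeq2 adjusted p of 0.0298. Pygm, the muscle phosphorylase gene, went from 6754 ± 528 to 6719 ± 453 CPM (log2 change -0.0075, edgeR adjusted p = 0.986). The regulatory subunit genes of the kinase lay on either side of 0, Phka1 at -0.12 and Phkb at 0.06 (edgeR adjusted p = 0.632 and 0.803). None of the 4 breakdown genes passed the test.

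None of the 11 genes of the glycolytic steps passed edgeR's test, DESeq2's or limma-voom's, and none had an unadjusted edgeR p under 0.05. Their log2 changes ran from -0.17 to 0.05 with standard errors of 0.06 to 0.17, 4 above 0 and 7 below, and their edgeR adjusted p-values from 0.507 to 0.989. Of the hexose steps, Hk2, the insulin-responsive hexokinase gene of muscle, went from 397 ± 47.5 to 399 ± 39.7 CPM, and Hk1, the housekeeping form, from 9.13 ± 1.28 to 8.19 ± 1.97 CPM. Gpi1 (glucose phosphate isomerase) went from 794 ± 31.5 to 786 ± 20.5 CPM. Pfkm, the muscle phosphofructokinase gene at the main control point of the pathway, went from 3108 ± 124 to 2969 ± 238 CPM. Aldoa (aldolase) went from 13145 ± 1313 to 13001 ± 1226 CPM.

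Among the triose steps, Gapdh, whose enzyme makes the first NADH, had the largest shift, from 7694 ± 626 to 6829 ± 680 CPM (log2 change -0.17, SE 0.10, edgeR adjusted p = 0.507). Pkm, the pyruvate kinase gene, followed at -0.11 and Tpi1 (triose phosphate isomerase) at -0.07. Pgk1 (phosphoglycerate kinase), Pgam2 (the muscle phosphoglycerate mutase) and Eno3 (the muscle enolase) lay at 0.05, 0.04 and 0.02. Libraries of the same group lay further apart than the group means. AAV8-Null replicate 2 was the highest of the 7 libraries for 9 of the 11 genes, and AAV8-IGFBP1 replicate 2 the lowest for 7. Summed over the 11 genes, AAV8-Null replicate 2 had 39324 CPM and AAV8-IGFBP1 replicate 2 had 30916 CPM, and the other 5 libraries had 33714 to 36037.

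Lactate dehydrogenase joins pyruvate to lactate, with the Ldha subunit dominant in fast muscle and the Ldhb subunit in heart and slow muscle. Ldha went from 1812 ± 180.5 to 1831 ± 110 CPM (log2 change 0.02, edgeR adjusted p = 0.963). Ldhb, given by library because of its link to fibre type after its values were seen, lay at 237, 91.8, 148 and 224 CPM in AAV8-Null and at 80.6, 112 and 129 CPM in AAV8-IGFBP1. The groups overlapped, since AAV8-Null replicate 2 lay among the AAV8-IGFBP1 libraries, and the log2 change of -0.71 (SE 0.37), the lowest of the 38, did not pass the test (edgeR adjusted p = 0.517). The slow fibre level, the mean of 10 markers on a centred log2 scale, put the libraries in the same order as Ldhb did, except that AAV8-Null replicate 2 and AAV8-IGFBP1 replicate 2 changed places. It was 1.15, -0.41, 0.40 and 1.08 in AAV8-Null and -1.55, -0.72 and 0.04 in AAV8-IGFBP1. All 10 slow fibre markers had a log2 change below 0 (median -1.41) and 0 passed edgeR's test, with 5 at an unadjusted p under 0.05. With that level as covariate the Ldhb log2 change was 0.25 (edgeR adjusted p = 0.687), on the other side of 0.

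The lactate carrier genes did not pass the test either. Slc16a1 (MCT1), which is richer in oxidative fibres and takes lactate up, went from 38.3 ± 5.42 to 34.2 ± 5.13 CPM. Its log2 change was -0.16 (edgeR adjusted p = 0.684), or 0.19 when fitted beside the slow fibre level. Slc16a3 (MCT4), the exporter of glycolytic fibres, went from 276 ± 30.7 to 250 ± 24.6 CPM (log2 change -0.14, edgeR adjusted p = 0.602). The 11 fast fibre markers had a median log2 change of 0.03, and 7 lay above 0. They ran from Myh2 at -0.66 and Myh1 at -0.45 to Myh4 at 0.17 and Actn3 at 0.25. Of these 11, 0 passed edgeR's test, and 1 (Actn3) had an unadjusted edgeR p under 0.05.

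**Figure D3:**
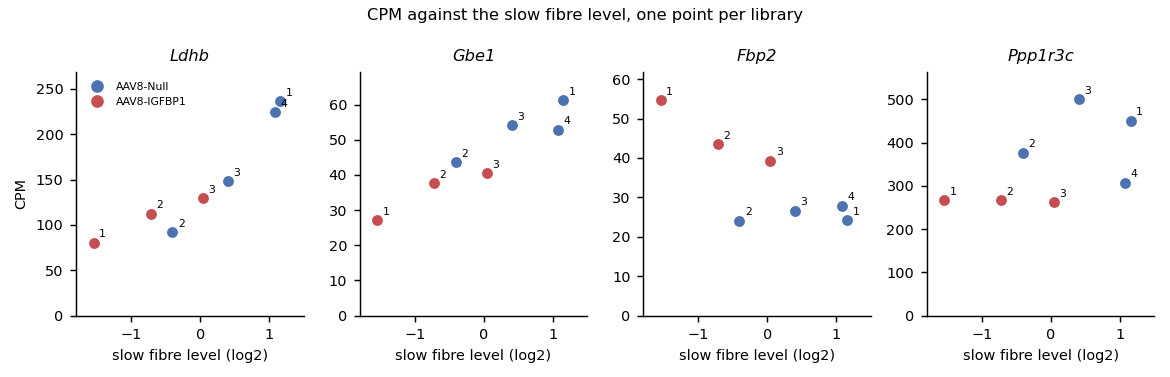
CPM (y axis, from 0) of 4 genes against the slow fibre level (x axis, mean centred log2 CPM of 10 markers), 1 point per library, numbered by replicate, with AAV8-Null in blue and AAV8-IGFBP1 in red. Ldhb and Gbe1 are lowest and Fbp2 is highest in AAV8-IGFBP1 replicate 1, which has the lowest slow fibre level (-1.55). Within AAV8-Null, Fbp2 lies at 24.1 to 27.9 CPM while that level runs from -0.41 to 1.15. Within AAV8-IGFBP1, Fbp2 lies at 54.7, 43.5 and 39.3 CPM at levels of -1.55, -0.72 and 0.04. The AAV8-IGFBP1 points of Ppp1r3c lie at 262 to 267 CPM while their slow fibre level runs from -1.55 to 0.04. Its AAV8-Null points lie at 451, 377, 501 and 307 CPM at levels of 1.15, -0.41, 0.40 and 1.08.

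The glycerol phosphate shuttle carries reducing power from glycolytic NADH to mitochondria. Gpd1, the cytosolic enzyme gene, which fat cells also express, went from 624 ± 47.5 to 752 ± 171 CPM (log2 change 0.27, SE 0.14, edgeR adjusted p = 0.464). At 949 CPM AAV8-IGFBP1 replicate 2, which had the most adipocyte marker RNA, stood alone above the other 6 libraries, which lay between 574 and 683 CPM. Without it the log2 change was 0.07. AAV8-Null replicate 1, with the next highest adipocyte marker sum (1280 CPM, of which Lpl gave 759), had 640 CPM of Gpd1. The mean centred log2 CPM of the 9 adipocyte markers was 0.25 in that library and 1.63 in AAV8-IGFBP1 replicate 2. The part of adipocytes in the Gpd1 values was not tested. Gpd2, the mitochondrial enzyme gene, went from 156 ± 17.9 to 165 ± 5.59 CPM (edgeR adjusted p = 0.733).

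Of 84 other genes of glucose and glycogen metabolism, listed with earlier results known, 76 were tested and 0 passed edgeR's test, with 9 at an unadjusted p under 0.05, 4 higher and 5 lower. limma-voom called 0 and DESeq2 called 1. That gene was Stbd1, which encodes a glycogen-binding protein that tethers glycogen to membranes. It lay at 32.7, 44.1, 52.4 and 33.4 CPM in AAV8-Null and at 31.0, 25.4 and 27.9 CPM in AAV8-IGFBP1, without overlap (log2 change -0.53, SE 0.18, edgeR adjusted p = 0.294, DESeq2 adjusted p = 0.0451). Adpgk, an ADP-dependent glucokinase gene, had a log2 change of 0.34 (edgeR adjusted p = 0.141), Pdp2, a pyruvate dehydrogenase phosphatase gene, one of 0.48 (0.266), and Pdk1, which encodes a kinase acting against that phosphatase, one of -0.20 (0.331). Over the 76 genes the median log2 change was 0.01, and 39 lay above 0.

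**Figure D4:**
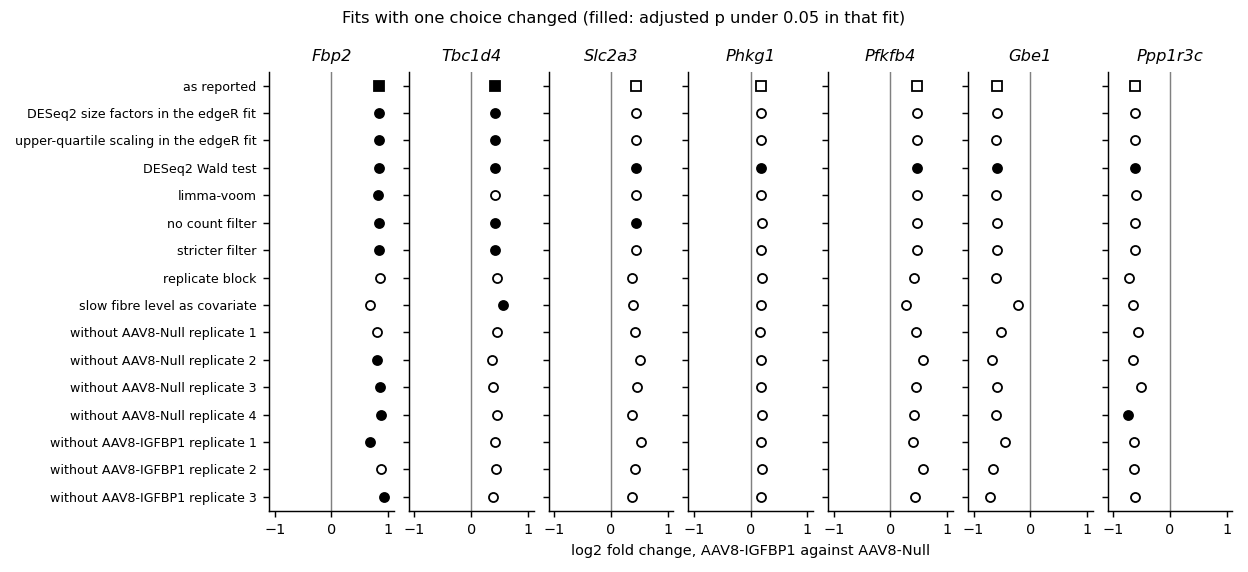
Log2 change (x axis) of 7 genes under the fit reported and under 15 fits with 1 choice changed (y axis). Squares mark the reported fit, and filled symbols have an adjusted p under 0.05 in that fit. All 7 genes keep their side of 0 in these 16 fits, Fbp2 is filled in 12 of them and Tbc1d4 in 7, and the DESeq2 row is filled for all 7 genes.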

How the data were processed

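Quadriceps RNA was measured in 7 libraries, grouped by title as 4 AAV8-Null and 3 AAV8-IGFBP1. Per the labels' protocols, an RNeasy Mini Kit gave the RNA and a Universal Plus mRNA-Seq kit the libraries. What the authors deposited were estimated counts per gene symbol, of which 5617 to 6277 per library were not whole (tolerance 1e-06). Per the submitters' processing notes, the build was GRCm39 and the tools, in roles not given, were R 4.2.2, Salmon 1.10.1, STAR 2.7.9a, Trim Galore 0.6.7 and cutadapt 3.4. The annotation release and whether strand was used are not given in the sources used here. Genes that overlap others, are antisense to them or have near-identical copies (such as Gapdh, Pgk1, Ldha, Aldoa and Tpi1 which have pseudogenes) could share reads. Gene positions in the counts' build are not given because the reference at hand is of GRCm38.

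Counts were rounded and tested with edgeR 4.0.16 (R 4.3.3) on group alone: filterByExpr (minimum count 10, minimum total 15), TMM, estimateDisp, robust glmQLFit and glmQLFTest, with Benjamini-Hochberg adjustment over 14935 genes and a threshold of 0.05. Where no tool is named, an adjusted p is edgeR's. Standard errors are the size of the log2 change over the square root of F. CPM are relative to TMM-scaled library totals, and log2 CPM use a prior count of 2. Floors (3 counts) cover counting error only. No 2 libraries of a group were within sampling noise of each other (chi-square over its degrees of freedom 20.4 to 54.6). In 5 simulated sets of this comparison (median 14696 genes tested, 200 changed), 9.39% of 1.3-fold changes were recovered, 40.0% of 1.5-fold, 66.8% of 2-fold and 79.2% of 3-fold ones, and 7.69% of calls were unchanged genes. The alternatives were DESeq2 1.42.0, limma 3.58.1 voom, 2 other scalings, 2 other filters, the replicate number as a block, the slow fibre level as covariate and each library left out. The members, lists and rules were chosen with earlier results of these data known. Called members, members whose groups do not overlap and the 6 lowest p were to be given library by library, and of the other pathway genes those called or among the 4 lowest p.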

Additional observations from a re-analysis of the deposited data

How the results depend on the processing

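The 2 calls rest on few libraries. The count of called members was 2 with DESeq2 size factors, upper-quartile scaling or a stricter filter, and 3 without a count filter. It was 7 with DESeq2, 1 with limma-voom (Fbp2), 1 with the slow fibre level as covariate (Tbc1d4) and 0 to 2 with 1 library left out, with 0 when AAV8-Null replicate 1 or AAV8-IGFBP1 replicate 2 was absent. DESeq2 called 1 of the other pathway genes, where edgeR called 0. Of all 14935 genes tested, 83 were called (0.556%). This was 82 with DESeq2 size factors (0.549%), 80 with upper-quartile scaling (0.536%), 62 with limma-voom (0.415%) and 53 with the slow fibre level (0.355%). Fits that tested other numbers of genes called 451 of 13766 (DESeq2, 3.28%), 306 of 27257 (no filter, 1.12%) and 81 of 12074 (stricter filter, 0.671%). With 1 library left out 19 to 86 genes were called (0.129 to 0.581%). There were 19 without AAV8-Null replicate 1, 52 without replicate 3, and 28 and 23 without AAV8-IGFBP1 replicates 1 and 2. The median log2 change of the members stayed between -0.035 and 0.027. With the replicate number as a block 0 members and 19 genes (0.127%) were called. Fbp2 then had an edgeR adjusted p of 0.0944 and Tbc1d4 one of 0.154. The labels do not state that the numbers pair the libraries. Same-numbered libraries correlated at -0.0984, 0.0682 and -0.0574 in their deviations from the group means. Only 1 of the 6 numbered libraries correlated best with its own number. With so few libraries, these values cannot decide whether the numbers pair them. The causes of these changes were not tested.

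Of 570 member values under the alternatives, 517 kept direction and side of the threshold, 13 lost a call and 7 gained one. Only Fbp2 and Tbc1d4 had a call to lose. They were called in 12 and 7 of 16 fits, the reported one included. The other 33 values changed sign, all 33 with an adjusted p of at least 0.534 in their fit. With the slow fibre level as covariate these were Eno3 (-0.029), Gpd2 (-0.086), Gys1 (0.15), Ldha (-0.095), Ldhb (0.25), Pgk1 (-0.040), Phkb (-0.078), Slc16a1 (0.19), Slc2a1 (0.12) and Tbc1d1 (0.0033). With the replicate block Hk2 was -0.019 and Ppp1r3b -0.42, and with limma-voom Ppp1r3b was -0.039. With 1 library left out the log2 change ran from -0.060 to 0.061 for Aldoa, -0.031 to 0.10 for Eno3, -0.037 to 0.014 for Gpi1, -0.16 to 0.0021 for Gys1, -0.077 to 0.083 for Hk2, -0.025 to 0.087 for Ldha, -0.0068 to 0.14 for Pgk1, -0.00086 to 0.060 for Ppp1r3a, -1.40 to 1.07 for Ppp1r3b, -0.051 to 0.048 for Pygm and -0.22 to 0.10 for Slc2a1. At this number of libraries 9.39% of simulated 1.3-fold changes, near the size of that of Tbc1d4, were recovered. The genes changed there were drawn from all genes past the filter. The standard errors of the members ran from 0.057 to 1.12, so that share need not hold for each of them. Members without a call are not shown to be unaltered.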

Other observations

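The ratio of 2 members within a library does not depend on the scaling of that library. Of 7 ratios of CPM, all chosen after the values were seen and given without a test, 3 separated the groups and 4 did not. They compare libraries, not the numbers of molecules of the 2 genes, since transcript length was not taken into account. The ratio of Tbc1d4 to Tbc1d1, which encode related Rab regulators, was 0.688, 0.671, 0.777 and 0.920 in AAV8-Null and 1.51, 1.44 and 0.915 in AAV8-IGFBP1, so AAV8-IGFBP1 replicate 3 lay within the AAV8-Null range. That of Fbp2 to Pfkm, whose enzymes run in opposite directions, was 0.00804, 0.00738, 0.00886 and 0.00883 in AAV8-Null and 0.0185, 0.0159 and 0.0122 in AAV8-IGFBP1, without overlap. Gbe1 to Gys1, the branching enzyme against the synthase, was 0.118, 0.0974, 0.119 and 0.106 against 0.0631, 0.0872 and 0.0764, again without overlap. Ppp1r3c to Ppp1r3a, 2 glycogen targeting subunits, was 1.25, 0.956, 1.43 and 0.819 against 0.730, 0.713 and 0.670, and every AAV8-IGFBP1 library lay below the AAV8-Null libraries. The other 3 ratios overlapped between groups. Ldhb to Ldha ran from 0.0444 to 0.138 in AAV8-Null and from 0.0420 to 0.0693 in AAV8-IGFBP1, Slc16a1 to Slc16a3 from 0.107 to 0.173 and from 0.111 to 0.164, and Gys1 to Pygm from 0.0605 to 0.0849 and from 0.0613 to 0.0762.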
